A study of Mus musculus with 4 samples.

Results

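The Gadd45 family comprises 3 mouse genes, Gadd45a, Gadd45b and Gadd45g, and was examined in cultures of EO771 cells that had received recombinant mouse A-FABP (100 ng/ml, 2 arrays) or PBS as the control (2 arrays). The family was chosen by its measured values in this comparison, in which Gadd45b and Gadd45g had been seen to be lower. A gene was counted as measured where a probe set on the array was annotated to that gene alone, and the probe set with the highest mean over the 4 arrays stood for it. By this rule 2 of the 3 genes, Gadd45b and Gadd45g, were measured, each by 1 probe set, of 22180 genes and 41345 probe sets in all. Gadd45a was found on 1 probe set, which was also annotated to E230016M11Rik, a long noncoding RNA gene that overlaps Gadd45a on the opposite strand in RefSeq. No value was therefore assigned to Gadd45a.

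EO771 is a mammary carcinoma line of C57BL/6 mice, and all 4 arrays came from this 1 line, grown in RPMI medium for 24 hours to at least 70% confluence before treatment. A-FABP is the adipose fatty acid binding protein, a carrier of fatty acids made by fat cells and macrophages, and part of it is released into the circulation. The titles call the arrays biological replicates, and whether they came from separate experiments is not stated, so errors measure only the spread between these arrays. The free-text description of the PBS arrays also names A-FABP, but the titles and source names of these arrays, and the design text, put them in the control group. The duration of exposure was not stated in the labels.

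GADD45 proteins are small acidic proteins without known enzymatic activity that act by binding partners. They are made when cells meet DNA damage, cytokines or other stress. All members of the family bind and activate MTK1 (Map3k4), a kinase upstream of p38 and JNK, and they bind PCNA, p21 and the CDK1 and cyclin B1 complex of the G2/M transition. Gadd45a is a textbook target of p53. Gadd45b, also known as Myd118, is induced by NF-kB and by TGF-beta, and its product can restrain JNK signalling by binding the kinase MKK7. Gadd45g, also known as CR6, is induced by cytokines in lymphoid and myeloid cells. The proteins have also been linked to active DNA demethylation.

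The 250 bases upstream of the RefSeq start of each gene (assembly GRCm38.p6) are shown because Gadd45b and Gadd45g were lower together with A-FABP. They are given 5′ to 3′ on the strand of the gene. Capitals mark the TATA box (TATAAA), the CAAT box (CCAAT), the E-box (CACGTG) and the octamer motif (ATGCAAAT), each searched on both strands, and no base belongs to more than 1 of these matches. The Gadd45b window is chr10:80929841-80930090 on the plus strand, the Gadd45g window chr13:51846425-51846674 on the plus strand, and the Gadd45a window chr6:67037408-67037657 on the minus strand.
Gadd45b: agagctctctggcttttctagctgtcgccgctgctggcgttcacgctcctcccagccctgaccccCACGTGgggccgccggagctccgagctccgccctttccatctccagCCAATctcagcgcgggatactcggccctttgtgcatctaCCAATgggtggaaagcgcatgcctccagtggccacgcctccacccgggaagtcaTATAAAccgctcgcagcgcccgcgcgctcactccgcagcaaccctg
Gadd45g: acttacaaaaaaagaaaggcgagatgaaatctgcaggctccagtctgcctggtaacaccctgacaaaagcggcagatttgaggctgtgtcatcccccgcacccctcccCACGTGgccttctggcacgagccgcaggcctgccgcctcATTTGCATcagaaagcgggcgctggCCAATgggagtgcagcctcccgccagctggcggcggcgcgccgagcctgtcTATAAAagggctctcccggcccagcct
Gadd45a: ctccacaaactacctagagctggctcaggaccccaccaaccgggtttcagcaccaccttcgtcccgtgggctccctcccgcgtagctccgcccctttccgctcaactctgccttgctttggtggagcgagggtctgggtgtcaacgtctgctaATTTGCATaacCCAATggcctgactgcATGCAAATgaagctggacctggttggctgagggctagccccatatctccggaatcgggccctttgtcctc

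The Gadd45b and Gadd45g windows both hold a TATA box, a CAAT box and the E-box, a palindrome whose letters are the same on both strands. In Gadd45b, the TATA box begins 46 bases before the start, the E-box 185 bases before it, and a CAAT box 139 and again 100 bases before it. In Gadd45g, the TATA box begins 27 bases, the CAAT box 78 bases and the E-box 142 bases before the start. Both E-boxes lie in the 10-base run ccccacgtgg, which 0.11% of 32851 upstream windows of this length hold on either strand. Runs of the same length are also shared with Gadd45a. Gadd45b shares ggccctttgt (0.1% of windows) and agctccgccc (0.91%) with it, and Gadd45g shares atgcaaatga (0.237%) as the reverse complement. A shared run of this length therefore does not set Gadd45b and Gadd45g apart from Gadd45a. The Gadd45a window has a CAAT box 86 bases before the start but neither a TATA box nor the E-box.

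Gadd45a and Gadd45g in turn share the octamer motif, which is absent from the Gadd45b window. It occurs on both strands in Gadd45a, with ends 97 and 70 bases before the start, and on the minus strand in Gadd45g, 103 bases before it. Over all windows, the CAAT box was found in 33.8%, the TATA box in 12.4%, the E-box in 6.02% and the octamer in 1.6%. These shares count a match anywhere in the window. TATAAA 20 to 40 bases before the start was found in 1.87% of plus-strand windows. That of Gadd45g lies in this stretch and that of Gadd45b lies outside it. GGGCGG, present in 32.7% of windows, occurred on the minus strand in Gadd45a and Gadd45b and not in Gadd45g. No Gadd45 window held TGANTCA (6.75% of windows), TGACGTCA (1.55%), GTAAACA (3.17%), TTCNNNGAA (7.02%) or the NF-kB 10-letter consensus (7.25%). A match or its absence describes these letters and says nothing of the factors that bind there.

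Gadd45b was lower with A-FABP than with PBS. Its log2 expression was 10.18 and 9.75 on the A-FABP arrays, against 11.18 and 11.28 on the PBS arrays. The groups did not overlap, and the gap between them was wider than the gap between replicates in either. The mean was 9.96 ± 0.31 with A-FABP and 11.23 ± 0.07 with PBS (SD, n = 2 each), a log2 difference of -1.27 ± 0.18 (SE; 95% CI -1.76 to -0.77). From its own arrays alone, the SE would be the pooled SD between replicates, 0.22, which is wider. On the linear scale the level with A-FABP was 41.6% of that with PBS. Any A-FABP array against any PBS array gave a difference between -1.54 and -1.0, which corresponds to 2.90-fold and 1.99-fold lower.

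Gadd45g was lower as well, by a smaller difference. Its log2 expression was 9.51 and 9.33 on the A-FABP arrays, against 10.23 and 10.36 on the PBS arrays, again without overlap. The mean was 9.42 ± 0.13 with A-FABP and 10.30 ± 0.09 with PBS (SD, n = 2 each), a log2 difference of -0.88 ± 0.11 (SE; 95% CI -1.18 to -0.57). The level with A-FABP was 54.5% of that with PBS, and single pairs of arrays ran from -1.03 to -0.72. The estimate for Gadd45b lay 0.39 below that for Gadd45g on the log2 scale (-0.39), but the 95% intervals of the 2 genes overlap and the difference between them was not tested.

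These genes were chosen with this contrast known, so their values are a description and no p-value is given for them. In the fit over the whole table with limma, 0 of 41345 probe sets passed an adjusted p under 0.05 (0% called; lowest adjusted p = 0.296), while 6258 had an unadjusted p under 0.05. Both A-FABP arrays lay below both PBS arrays in 27.5% of all genes, and above them in 26%, so that a lack of overlap alone is common on these arrays. By size, Gadd45b had the lowest difference of all 22180 genes and Gadd45g the 12th lowest. The 10 genes between them, 4 of them olfactory receptor genes and 2 vomeronasal receptor genes, had means between 3.28 and 5.93 with A-FABP and between 4.25 and 6.85 with PBS, where the array medians were 5.95 to 6.03.

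**Figure D1:**
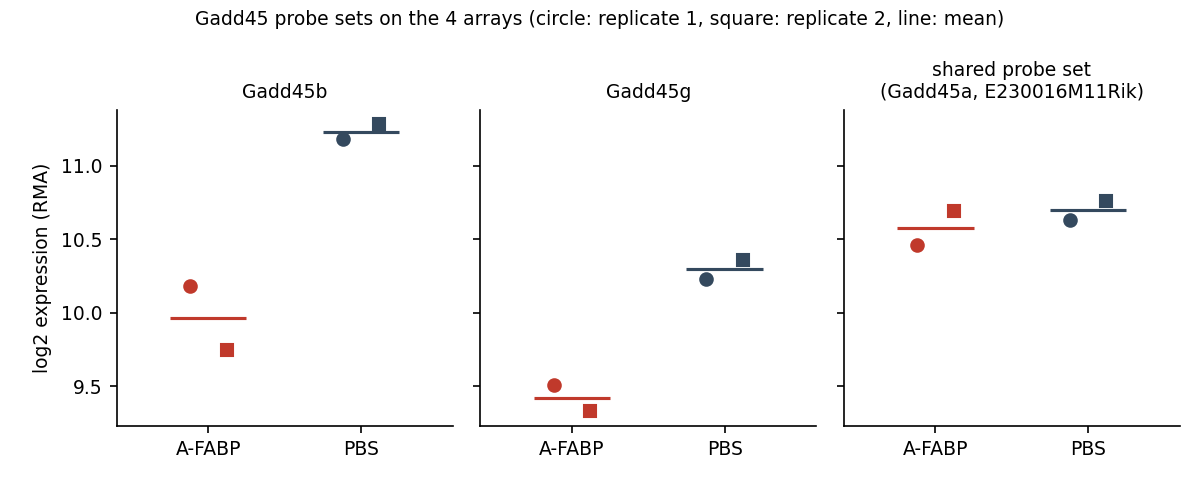
Log2 expression (RMA values, vertical axis) of Gadd45b, Gadd45g and the probe set shared by Gadd45a and E230016M11Rik in the A-FABP and PBS groups; circles are replicate 1, squares replicate 2 and lines the mean of the 2 arrays. Gadd45b (means 9.96 and 11.23) and Gadd45g (9.42 and 10.30) do not overlap between A-FABP and PBS, whereas the shared probe set does.

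The probe set shared by Gadd45a and E230016M11Rik did not separate the groups. It stood at 10.46 and 10.69 in A-FABP cultures, against 10.63 and 10.76 in PBS cultures, a difference of -0.12 ± 0.12 (SE; 95% CI -0.46 to 0.22). E230016M11Rik also has a probe set of its own, at 5.55 and 5.69 in A-FABP cultures, against 5.62 and 5.56 in PBS cultures, a difference of 0.04 ± 0.09 (SE). How much of the shared signal comes from either transcript was not tested, and no direction for Gadd45a follows from it.

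Both measured members varied more between replicates than most genes of like level. Among the 1332 genes whose mean over the 4 arrays lay within 0.5 of that of Gadd45b, 0 had a wider gap between the A-FABP arrays than its 0.44, where the median gap was 0.045. Between the PBS arrays the gap of Gadd45b was 0.10, and 164 of the 1332 had a wider one. For Gadd45g, 123 of 2042 genes of like level had a wider gap than its 0.18 between the A-FABP arrays, and 213 a wider gap than its 0.13 between the PBS arrays. Replicate 2 was the lower A-FABP array and replicate 1 the lower PBS array for both genes, so the 4 arrays stand in the same order.

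Gadd45b and Gadd45g each had the lowest difference among genes of their own brightness. They were chosen for these differences, so this is a description and no support. The 1332 genes of like level to Gadd45b had a median difference of 0.03, with 90% between -0.10 and 0.18, and 0 of them had a lower difference. The 2042 genes of like level to Gadd45g had a median of 0.05, with 90% between -0.11 and 0.23, and again 0 lay lower. Mir1938 (9.37 with A-FABP and 10.24 with PBS) came close to Gadd45g, at -0.86. Of the 4532 genes with a mean of 9 or more, a level chosen after the values were seen, 6 were at least 1.5-fold lower with A-FABP and 1 was at least 1.5-fold higher. That level is a mean over both groups. Tnfaip3 (8.81 with A-FABP and 9.69 with PBS) and Kcna4 (9.53 with A-FABP and 8.76 with PBS) reached 9 only in the group where they were higher.

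The others among these 6 were Tnfaip3, Nfkbia, Mir1938 and Snora34. Tnfaip3, whose product A20 inhibits NF-kB signalling, lay at 8.97 and 8.65 in A-FABP cultures, against 9.57 and 9.80 in PBS cultures. Nfkbia, the gene of the NF-kB inhibitor IκBα, lay at 11.76 and 11.62 in A-FABP cultures, against 12.30 and 12.46 in PBS cultures. Both were picked here for their difference, so its direction is part of the choice. The microRNA gene Mir1938 differed by -0.86 ± 0.18 (SE) and the small nucleolar RNA gene Snora34 by -0.59 ± 0.24 (SE). Kcna4, a potassium channel gene, was the higher one at 0.77 ± 0.12 (SE), a value that rests on 1 of its probe sets: with the mean of all its probe sets it was not in the list.

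**Figure D2:**
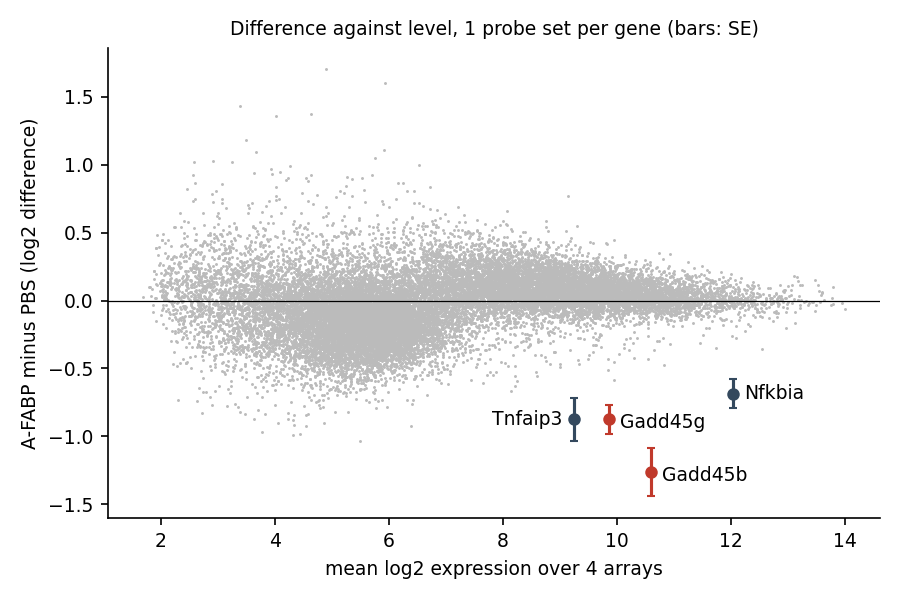
Log2 difference (A-FABP minus PBS, vertical axis) against mean log2 expression over the 4 arrays (horizontal axis) for 22180 genes in grey, with Gadd45b and Gadd45g in red, Tnfaip3 and Nfkbia in dark blue and bars for the SE. At the level of the Gadd45 genes the grey cloud is narrow (90% between -0.11 and 0.23 around Gadd45g), and all 4 named genes lie below it.

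Likeness to each member was measured as the Euclidean distance over the 4 arrays between log2 values, each gene taken relative to its own mean. The 5 genes nearest to Gadd45b were Gsdma2 (distance 0.36), Tnfaip3 (0.41), Olfr414 (0.43), Vmn2r16 (0.43) and Gadd45g (0.43). The 5 nearest to Gadd45g were Vmn2r16 (0.08), Dbpht2 (0.08), Olfr1314 (0.11), Tnfaip3 (0.12) and Gsdma2 (0.13), and Gadd45b ranked 346 from it. Of these, Tnfaip3 and the Gadd45 genes lay above the array medians, and the other genes had means of 3.06 to 4.97 with A-FABP and 3.90 to 6.01 with PBS. With 4 arrays in 2 groups this measure mostly orders genes by the size of their difference.

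The genes next to the Gadd45 loci had small differences. Around Gadd45b, the lamin gene Lmnb2 lay at 0.03 ± 0.16, the mitochondrial import gene Timm13 at -0.19 ± 0.10, the G protein subunit gene Gng7 at -0.04 ± 0.08 and the small GTPase gene Diras1 at -0.06 ± 0.08 (log2 difference ± SE). Around Gadd45g, the semaphorin gene Sema4d lay at -0.04 ± 0.20, Secisbp2, which acts in selenoprotein synthesis, at 0.06 ± 0.09, Diras2 at -0.03 ± 0.09 and the kinase gene Syk at 0.20 ± 0.12. Around Gadd45a, Gng12 lay at -0.06 ± 0.09, the vomeronasal receptor gene Vmn1r39 at 0.08 ± 0.19, the mRNA-binding protein gene Serbp1 at 0.04 ± 0.08 and the cytokine receptor gene Il12rb2 at -0.28 ± 0.13. The differences of Gadd45b and Gadd45g exceeded in size those of the 8 neighbours measured around them. Both genes were chosen for their low differences, so this was largely set by the choice.

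**Figure D3:**
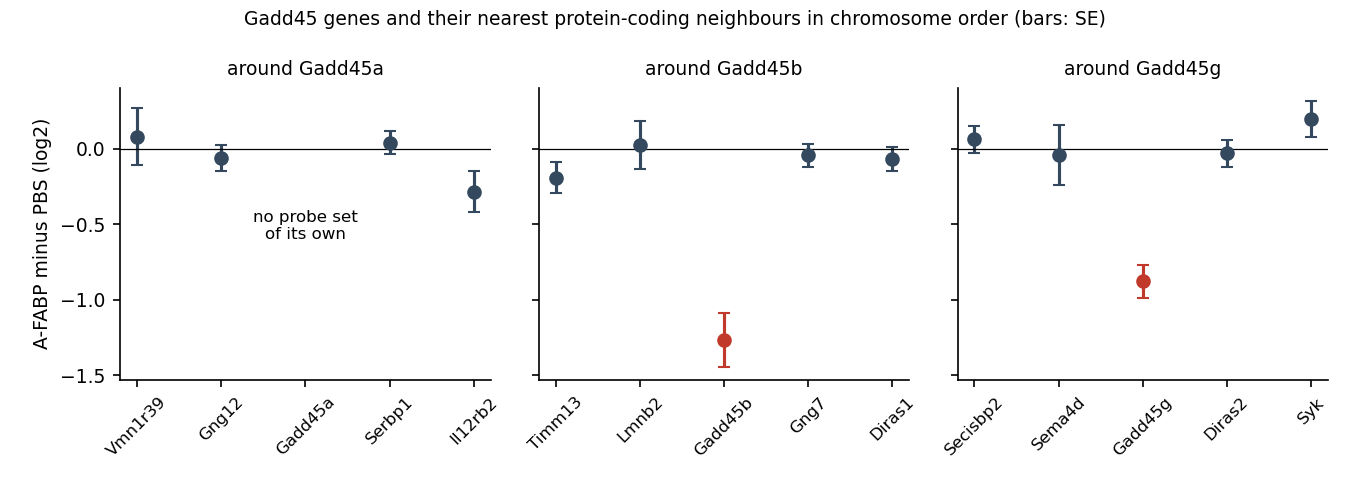
Log2 difference (A-FABP minus PBS, vertical axis) of Gadd45b and Gadd45g in red and of the 2 nearest protein-coding genes on each side of each Gadd45 gene in dark blue, in chromosome order and not to distance, with bars for the SE; Gadd45a has no probe set of its own. Neighbours lie between -0.28 and 0.20, and Gadd45b and Gadd45g at -1.27 and -0.88.

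The combination of TATA box, CAAT box and E-box, chosen after the 3 windows were read, was held by 55 of 32851 windows (0.167%). Beside Gadd45b and Gadd45g, 40 measured genes had such a window, and 21 of them lay below 0 and 19 above, with a median difference of -0.03. The median over the 16918 measured genes with a window was -0.0048. At an unadjusted limma p under 0.05, Olfr283, an olfactory receptor gene, was the only one of these 40 genes, and it was lower. Of all genes, 8.24% were lower and 4.81% higher at that p. Taken singly and without the Gadd45 genes, the TATA box went with a median difference of -0.043 (1298 genes below 0 and 934 above). The CAAT box went with 0.003 and the E-box with 0.017.

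Genes that act around GADD45 proteins were set beside the members as 8 lists. Here a gene is described as lower or higher at an unadjusted limma p under 0.05, which 8.24% of all genes met on the lower side and 4.81% on the higher side, with a median difference of -0.01 over all genes. The lists were brighter than all genes, with median levels of 8.28 to 9.77 with A-FABP against 6.28. Over the 12545 genes above the median level the median difference was 0.04, so all genes are an unlike reference for them. That balance depended on the scaling: 1828 lower and 1066 higher as deposited, 1048 and 1812 after median centring, 1062 and 979 after cyclic loess. Median centring shifts every gene alike, and the median over all genes was 0.055 after it. The list medians of regulators (0.060), binding partners (0.048) and NF-kB genes (0.016) then lay above 0, where those of the deposited values lay below it. These changes of sign came with that shift and are no change relative to other genes. The p53 list, above 0 as deposited, had a median of -0.017 after cyclic loess and -0.034 without A-FABP replicate 2. No member of any list passed the adjusted p. In such cultures fewer cells of a kind and less RNA per cell cannot be told apart.

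Factors reported to control Gadd45 transcription had 17 of 20 genes measured, with a median of -0.01, 2 lower and 0 higher. The lower ones were the forkhead factor gene Foxo1, at 6.61 and 6.45 in A-FABP cultures, against 6.88 and 7.08 in PBS cultures, and the zinc finger factor gene Wt1, at 6.20 and 6.13 in A-FABP cultures, against 6.50 and 6.48 in PBS cultures. Rela, the NF-kB subunit gene, lay at -0.01 (95% CI -0.24 to 0.22), Foxo3 at -0.03 (-0.30 to 0.24) and Smad3, a mediator of TGF-beta signals, at 0.02 (-0.25 to 0.30). Trp53 had no probe set naming it alone.

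Binding partners of the GADD45 proteins had 10 of 12 genes measured, with a median of -0.02, 0 lower and 0 higher, and a range from -0.15 to 0.10. Gadd45gip1, which encodes the partner CRIF1, lay at -0.15 (95% CI -0.40 to 0.09) and the cell cycle kinase gene Cdk1 at 0.10 (-0.12 to 0.33). Map3k4, which encodes MTK1, lay at -0.05 (-0.27 to 0.17) and Mapk14, which encodes p38 alpha, at 0.07 (-0.16 to 0.31). Pcna, the replication clamp gene, lay at 0.06 (-0.17 to 0.29) and Cdkn1a, which encodes p21, at -0.01 (-0.23 to 0.20). Map2k7 and Ccnb1 had no probe set naming them alone.

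The p38 and JNK cascade had 22 of 23 genes measured, with a median of 0.06, 1 lower and 1 higher. Mapk13, which encodes p38 delta, was the lower one, at 5.69 and 5.77 in A-FABP cultures, against 6.16 and 6.31 in PBS cultures. Map3k11, which encodes the kinase MLK3, was the higher one, at 9.05 and 9.06 in A-FABP cultures, against 8.81 and 8.73 in PBS cultures. The list median was 0.0019 after repeated quantile normalization and 0.129 after median centring, where the medians over all genes were -0.022 and 0.055.

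G2/M checkpoint genes had 13 of 15 measured, with a median of 0.10, 1 lower and 1 higher. Of the 13, 10 lay above 0 and 3 below. Both A-FABP arrays lay above both PBS arrays in 10 of them and below in 1, against 26% and 27.5% of all genes. Those shares cover genes of every level. The checkpoint kinase gene Chek2 was higher, at 8.40 and 8.28 in A-FABP cultures, against 8.05 and 7.98 in PBS cultures. Sfn, which encodes 14-3-3 sigma, was lower, at 7.97 and 7.99 in A-FABP cultures, against 8.20 and 8.37 in PBS cultures. The list median was 0.041 after repeated quantile normalization and 0.165 after median centring, where the medians over all genes were -0.022 and 0.055.

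Genes of active DNA demethylation had 14 of 16 measured, with a median of 0.06, 0 lower and 2 higher. These were the cytidine deaminase gene Apobec1 (0.34 ± 0.10 SE) and the DNA glycosylase gene Mbd4 (0.26 ± 0.08 SE). The list median was 0.0087 after cyclic loess and 0.128 after median centring, where the medians over all genes were -0.005 and 0.055. It was 0.030 without A-FABP replicate 2, 0.122 without A-FABP replicate 1 and 0.109 without PBS replicate 2.

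Targets of p53 had 22 of 24 measured, with a median of 0.01, 2 lower and 1 higher. The polo-like kinase gene Plk2 (-0.32 ± 0.09 SE) and the antiproliferative gene Btg2 (-0.39 ± 0.12 SE) were lower, and Sesn1, which encodes a stress-induced sestrin, was higher (0.24 ± 0.08 SE). Other growth arrest and stress genes, which share Plk2, Btg2, Cdkn1a, Sesn2 and Plk3 with the p53 list, had 23 of 24 measured, with a median of -0.12, 6 lower and 0 higher. Without PBS replicate 2 that median was -0.027, against -0.002 over all genes. After median centring it was -0.054, against 0.055 over all genes. Ddit4, which encodes an mTORC1 inhibitor, lay at 9.94 and 9.73 in A-FABP cultures, against 10.28 and 10.18 in PBS cultures. Ppp1r15a, which encodes GADD34, is named for growth arrest and DNA damage like the Gadd45 genes, and it lay at 8.88 and 8.87 in A-FABP cultures, against 9.12 and 9.15 in PBS cultures. The CDK inhibitor gene Cdkn1c was lower by a like amount (-0.25 ± 0.08 SE). Ddit3, which encodes the stress factor CHOP (GADD153), lay on the other side, at 8.20 and 8.39 in A-FABP cultures, against 8.03 and 8.09 in PBS cultures (0.24; 95% CI -0.05 to 0.53).

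NF-kB survival and feedback genes, the group to which Gadd45b belongs by its known induction, had 16 of 18 measured, with a median of -0.05, 3 lower and 0 higher. The 3 were Tnfaip3 (-0.88 ± 0.16 SE), Nfkbia (-0.69 ± 0.11 SE) and Nfkbiz, which encodes a nuclear regulator of NF-kB (-0.34 ± 0.08 SE; 9.55 and 9.56 in A-FABP cultures, against 9.88 and 9.91 in PBS cultures). The list was fixed with Tnfaip3 and Nfkbia already known to be lower on these arrays, so its count is no independent evidence of a direction. All other members lay between -0.15 and 0.25.

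**Figure D4:**
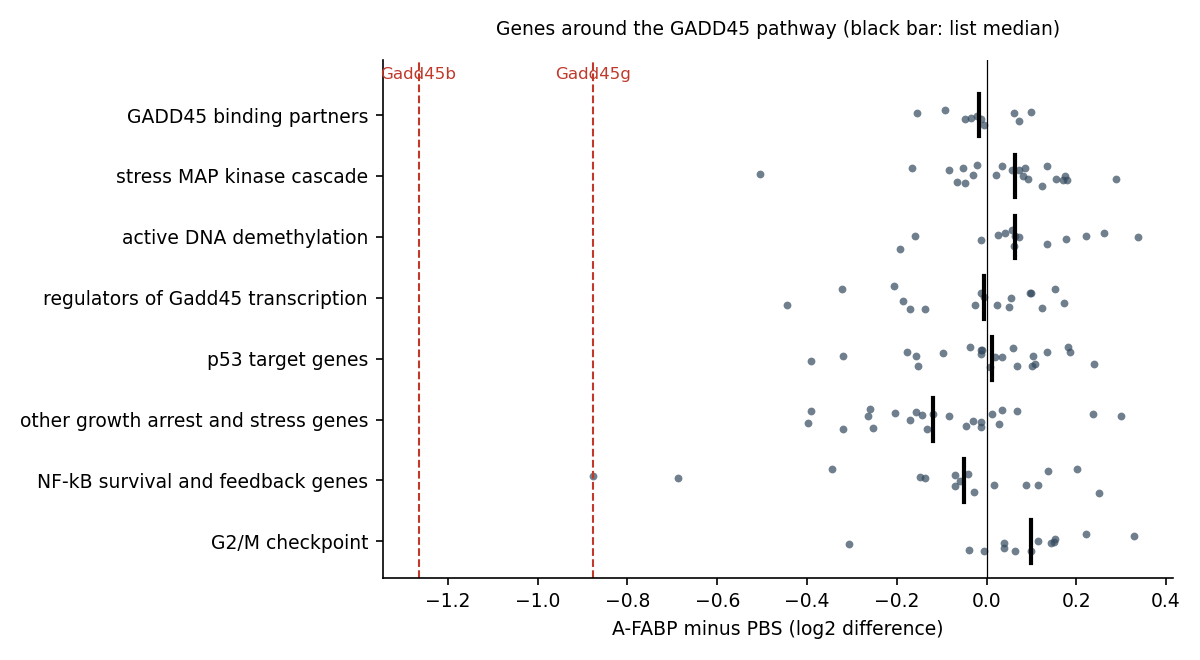
Log2 difference (A-FABP minus PBS, horizontal axis) of each measured gene in the 8 lists around the GADD45 proteins, with black bars for list medians (-0.12 to 0.10) and dashed lines at Gadd45b (-1.27) and Gadd45g (-0.88). Tnfaip3 and Nfkbia, at -0.88 and -0.69, are the only points that reach beyond -0.6.

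Markers of the carcinoma line and of other cells were set beside these results. Of 8 epithelial genes, Krt8 was the brightest, at 8.76 and 8.85 in A-FABP cultures, against 8.83 and 8.74 in PBS cultures, while Epcam lay below the array medians at 4.45 and 4.85 in A-FABP cultures, against 4.79 and 5.05 in PBS cultures. Krt18, Krt19, Krt7, Cdh1 and Cldn4 had group means between 5.94 and 6.36, near the array medians, and Cldn7 lay lower. The summed linear level of the 8 epithelial genes ran from 834 to 854 with A-FABP and from 848 to 890 with PBS. The summed linear level of 9 leukocyte and macrophage markers, most of it from Cd68 (12.70 and 12.80 in A-FABP cultures, against 12.82 and 12.84 in PBS cultures), ran from 7150 to 7655 with A-FABP and from 7739 to 7817 with PBS. Of these 9 genes 6 lay below 0 and 3 above, with a median difference of -0.16. At the threshold used for the lists 2 were lower, Ptprc and Itgam, and 0 higher. Itgam lay at 5.15 and 5.12 in A-FABP cultures, against 5.50 and 5.44 in PBS cultures. Among the 3 above 0, Cd14 lay at 7.19 and 7.49 in A-FABP cultures, against 7.05 and 7.08 in PBS cultures. Csf1r lay at 6.94 and 6.85 in A-FABP cultures, against 6.69 and 6.78 in PBS cultures. Neither Cd14 nor Csf1r was past that threshold. The defining marker Ptprc lay far below the array medians, at 4.0 and 4.0 in A-FABP cultures, against 4.58 and 4.32 in PBS cultures. The sums ran from 3654 to 3673 with A-FABP and from 3473 to 3648 with PBS for 8 fibroblast markers, from 307 to 344 with A-FABP and from 337 to 343 with PBS for 6 endothelial markers, and from 262 to 292 with A-FABP and from 285 to 300 with PBS for 7 adipocyte markers. Pdgfra was the brightest fibroblast marker, at 11.19 and 11.21 in A-FABP cultures, against 11.22 and 11.16 in PBS cultures. At the same threshold, 1 gene was lower and 0 higher in each of the fibroblast (Col1a2), endothelial (Tie1) and adipocyte (Cidea) lists. The epithelial list had 0 lower and 0 higher. RMA gives every probe set a value above 0, so absence could not be called. The part of these markers in the Gadd45 differences was not tested.

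Among 12 processing alternatives, leaving out an array moved both differences over a wider range than rescaling did. With an array left out, Gadd45b ran from -1.48 (without A-FABP replicate 1) to -1.05 (without A-FABP replicate 2) and Gadd45g from -0.97 to -0.79 in the same order. Scaling and trend alternatives gave -1.31 to -1.20 for Gadd45b and -0.93 to -0.81 for Gadd45g. Counted from the lowest difference over all genes, Gadd45b ranked between 1 and 17 and Gadd45g between 4 and 74 under the alternatives that kept all 22180 genes, both farthest from the lowest without A-FABP replicate 2. Among the 12545 genes above the median level they ranked 1 and 3. The genes were chosen for being lower, so their direction is no sign of stability.

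**Figure D5:**
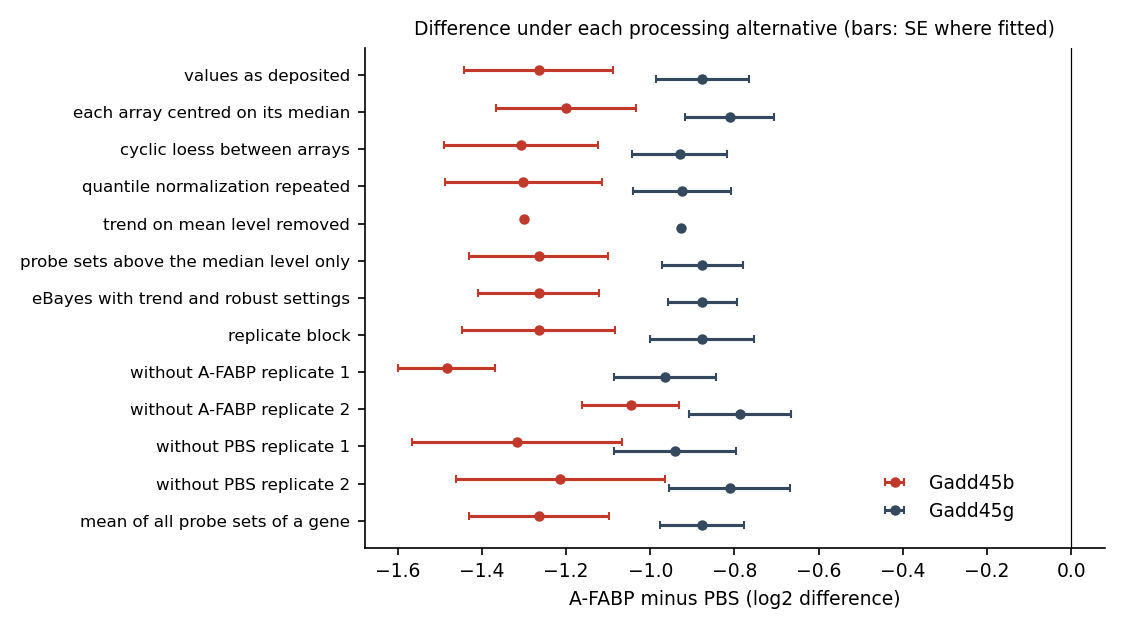
Log2 difference (A-FABP minus PBS, horizontal axis) of Gadd45b in red and Gadd45g in dark blue under the deposited values and 12 alternatives, with bars for the SE where a fit gave one. Gadd45b lies between -1.48 and -1.05 and Gadd45g between -0.97 and -0.79.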

How the data were processed

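Labelled RNA of 4 EO771 cultures, 2 with A-FABP and 2 with PBS, was hybridised to 1-colour arrays. The deposited table holds 1 log2 value per probe set and array. RMA and Partek 6.6 are named, per the submitters' processing notes; neither the array design nor a genome build is stated there. RMA subtracts background, brings the arrays to a common scale and combines the probes of a set, and it understates differences at both ends of the range. For arrays, their number limits the precision. Over all probe sets, replicate arrays correlated at 0.991 in each group.

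The platform annotation named 1 gene for 23521 of 41345 probe sets, several for 1814 and none for 16010. Of the genes, 21994 of 22180 matched the RefSeq table (GRCm38.p6, used for names and neighbours) by gene ID. Of 178 symbols in the lists, 164 were measured. Upstream sequences came from RefSeq, and all 3 Gadd45 genes matched by symbol.

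Differences, SE and 95% intervals came from limma 3.58.1 (lmFit, eBayes) in R 4.3.3, fitted over all probe sets with Benjamini-Hochberg adjustment and an adjusted p under 0.05 as the threshold. The fit, with 2 residual degrees of freedom and 1.91 from the prior, was tested on simulated data. An unadjusted p is two-sided. Alternatives covered scaling, the trend on level, a level filter, eBayes settings, the choice of probe set, a replicate block and each array left out. The members and lists were chosen with earlier results of these data known. Genes named as results are the Gadd45 probe sets, the 5 nearest patterns, the 2 nearest protein-coding neighbours on each side, a panel of 16 genes and, per list, up to 4 genes with the lowest p under 0.05, or 2 where fewer passed; the genes at a mean of 9 or more, Olfr283, E230016M11Rik and the markers were named outside this rule. Replicate numbers are shared between the groups, but deviations of same-numbered arrays did not go together (r = -0.0089), so the numbers were not taken as pairs.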

Additional observations from a re-analysis of the deposited data

How the results depend on the processing

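The differences of Gadd45b and Gadd45g moved by less than 1 pooled SD between replicates under all 12 alternatives. Most of these could not have moved them further. With 2 arrays per group, leaving 1 out cannot shift a difference by more than that SD. The block, the eBayes settings, the level filter and the choice of probe set left both differences unchanged by design. Only the scaling and trend alternatives were free to move them further. The differences were -1.20 and -0.81 after median centring and -1.31 and -0.93 after cyclic loess. Repeated quantile normalization gave -1.30 and -0.92, and removing the trend on level gave -1.30 and -0.93. Leaving out 1 array gave -1.48 to -1.05 for Gadd45b and -0.97 to -0.79 for Gadd45g. With the replicate number as a block they were -1.27 ± 0.18 and -0.88 ± 0.12 (SE), and the block gave no call at an adjusted p under 0.05. In the 10 alternatives with a test, 0 probe sets passed that threshold. Genes lower and higher at an unadjusted p under 0.05 numbered 1464 and 723 with the block, 1425 and 1889 with trend and robust settings, 865 and 1443 above the median level and 1445 and 813 after repeated quantile normalization. With an array left out they ran from 772 to 1554 lower and from 362 to 705 higher. Among genes at a mean of 9 or more, 5 to 7 were at least 1.5-fold lower and 0 to 4 at least 1.5-fold higher; these counts were added after the data were seen. Gadd45b, Gadd45g, Tnfaip3, Nfkbia and Mir1938 were among the lower ones in all 12. List medians turned sign under 3 alternatives for binding partners, 4 for regulators, 4 for p53 targets and 1 for NF-kB genes, and under 0 for the remaining 4 lists, but the size of each of these 4 moved by over 1.5 times. Medians ran from 0.0019 to 0.129 for the p38 and JNK cascade, 0.0087 to 0.128 for demethylation, 0.041 to 0.165 for the G2/M checkpoint, -0.141 to -0.027 for growth arrest and stress, -0.049 to 0.048 for binding partners, -0.031 to 0.060 for regulators, -0.034 to 0.078 for p53 targets and -0.11 to 0.016 for NF-kB genes. Median centring shifts every gene alike, and it moved the median over all genes from -0.01 to 0.055, so list medians moved with it. The causes of the other shifts were not tested. With 2 arrays per group, the estimates rest on few residual degrees of freedom.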

Other observations

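A probe set annotated to both Dand5 and Gadd45gip1 lay at 6.89 and 6.57 in A-FABP cultures, against 6.58 and 6.69 in PBS cultures, a log2 difference of 0.09 ± 0.14 (SE). It was not used for Gadd45gip1, whose own probe set lay at 6.85 and 6.79 in A-FABP cultures, against 7.02 and 6.93 in PBS cultures (-0.15; 95% CI -0.40 to 0.09).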
